A study of Homo sapiens with 16 samples.

Results

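Histone H3 monomethylated at lysine 4 (H3K4me1) was mapped by chromatin immunoprecipitation and sequencing (ChIP-seq) in Toledo cells, an established line from a diffuse large B-cell lymphoma. The 4 H3K4me1 peak lists described here are all those of this mark among the 12 peak lists and 16 samples of the series, whose other marks are H3K27ac and H3K4me3. CARM1i libraries 1 and 2 (replicates 1 and 2) came from cells given TP-064, which inhibits the arginine methyltransferase CARM1, at 5 uM for 6 days. DMSO libraries 1 and 2 (replicates 1 and 2) came from the same line given the solvent for 6 days. The antibody was abcam ab8895 in all 4 libraries. By its title, the series concerns CARM1 inhibition, acetyltransferases and lymphomas that carry CREBBP or EP300 mutations. All cells are of 1 line, and the labels do not say whether the libraries of 1 treatment are separate cultures. The p-values here therefore reflect only how these libraries varied, and that variation may be technical. The sample descriptions put both CARM1i libraries on lane 4 and both DMSO libraries on lane 3, and the effects of lane and of treatment cannot be told apart.

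H3K4me1 is placed mainly by the methyltransferases KMT2C and KMT2D at enhancers, the distal elements that regulate genes, and it marks them whether or not they are active. At active promoters H3K4me1 flanks the start site, where H3K4me3 takes its place, and H3K27ac, placed by CREBBP and EP300, marks the active members of both classes. CARM1 methylates histone H3 and coactivators, the acetyltransferases CREBBP and EP300 among them.

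In outline, the inhibitor-treated libraries listed fewer H3K4me1 sites than either DMSO library, and their sites were mostly the wider DMSO sites, drawn narrower. The B-cell genes CD79A, CD79B and PAX5 kept H3K4me1 over fewer bp, and FCER2 and TCL1B had none left in either inhibitor library. Promoters from 6 genes are printed first because they show both outcomes. Those of FCER2, TCL1B and PIEZO1 had H3K4me1 over all 300 bases in both DMSO libraries and over 0 bases in both CARM1i libraries, while those of EHD1, SEPTIN9 and RARA had it over all 300 bases in all 4 libraries. A gene can have several promoters, and the printed promoter is the first by position with this coverage. Those of SEPTIN9 and RARA lie inside the genes, which start at chr17:77281499 and chr17:40309180. The sequences are RefSeq promoters of GRCh38.p14 from 250 bases before to 50 bases after a start site, 5′ to 3′ on the gene's strand, with each CG dinucleotide in capitals. They lie at chr19:7702082-7702381 (FCER2, minus strand), chr14:95686176-95686475 (TCL1B, plus), chr16:88785171-88785470 (PIEZO1, minus), chr11:64879644-64879943 (EHD1, minus), chr17:77404827-77405126 (SEPTIN9, plus) and chr17:40341916-40342215 (RARA, plus), and they were chosen after their values were seen.
FCER2 promoter: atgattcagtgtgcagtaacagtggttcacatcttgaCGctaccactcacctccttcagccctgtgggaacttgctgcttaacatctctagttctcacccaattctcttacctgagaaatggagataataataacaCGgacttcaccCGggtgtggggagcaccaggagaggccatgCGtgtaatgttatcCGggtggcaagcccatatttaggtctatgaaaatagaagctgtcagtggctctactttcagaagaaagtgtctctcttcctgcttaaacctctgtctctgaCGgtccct
TCL1B promoter: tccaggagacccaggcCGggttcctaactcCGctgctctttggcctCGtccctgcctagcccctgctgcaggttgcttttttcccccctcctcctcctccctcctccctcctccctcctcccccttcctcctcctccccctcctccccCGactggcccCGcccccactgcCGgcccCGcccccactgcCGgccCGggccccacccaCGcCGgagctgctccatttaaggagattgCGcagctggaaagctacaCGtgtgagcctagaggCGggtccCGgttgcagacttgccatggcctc
PIEZO1 promoter: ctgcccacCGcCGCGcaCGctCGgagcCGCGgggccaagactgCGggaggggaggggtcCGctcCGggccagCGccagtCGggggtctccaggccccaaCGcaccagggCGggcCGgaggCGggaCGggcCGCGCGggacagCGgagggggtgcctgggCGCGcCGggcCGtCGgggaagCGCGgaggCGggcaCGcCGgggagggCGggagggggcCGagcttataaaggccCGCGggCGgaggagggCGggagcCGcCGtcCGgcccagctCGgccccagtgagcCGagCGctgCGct
EHD1 promoter: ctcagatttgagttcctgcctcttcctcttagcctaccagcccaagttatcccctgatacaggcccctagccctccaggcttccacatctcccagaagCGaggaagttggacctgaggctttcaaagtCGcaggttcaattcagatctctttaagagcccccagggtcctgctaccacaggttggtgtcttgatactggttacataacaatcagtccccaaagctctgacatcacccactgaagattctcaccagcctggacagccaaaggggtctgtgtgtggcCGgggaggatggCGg
SEPTIN9 promoter: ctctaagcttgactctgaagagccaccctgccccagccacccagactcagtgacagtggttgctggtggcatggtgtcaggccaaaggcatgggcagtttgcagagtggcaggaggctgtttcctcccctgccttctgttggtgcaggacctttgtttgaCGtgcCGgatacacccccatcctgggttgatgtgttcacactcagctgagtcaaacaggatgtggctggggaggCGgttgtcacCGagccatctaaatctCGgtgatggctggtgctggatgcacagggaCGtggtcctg
RARA promoter: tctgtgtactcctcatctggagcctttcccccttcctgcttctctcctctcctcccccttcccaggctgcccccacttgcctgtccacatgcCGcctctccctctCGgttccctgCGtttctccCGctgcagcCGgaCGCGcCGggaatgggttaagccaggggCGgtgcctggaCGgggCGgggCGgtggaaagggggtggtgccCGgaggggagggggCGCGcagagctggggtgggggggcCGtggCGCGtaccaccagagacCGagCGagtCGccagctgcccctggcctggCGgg

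These promoters hold 6 (FCER2), 15 (TCL1B), 44 (PIEZO1), 4 (EHD1), 6 (SEPTIN9) and 22 (RARA) CG dinucleotides. Both outcomes thus occur at CG-poor and CG-rich promoters among the 6. Over the 22132 RefSeq promoters of 15812 protein-coding genes, 1009 had H3K4me1 in both DMSO libraries. Of these, 634 (62.8%) had none in either CARM1i library and 175 had it in all 4 libraries. The 634 held a median of 25 CG dinucleotides (quartiles 10 and 35), the 175 a median of 10 (quartiles 6 and 23), and all promoters a median of 21 (quartiles 7 and 31). At least 10 CG dinucleotides were present in 76.2% of the 634, in 53.1% of the 175 and in 70.1% of all promoters. H3K4me3 in all 4 H3K4me3 libraries covered part of 45.3% of the 634, 22.3% of the 175 and 46.7% of all promoters. It covered part of 32.5% of the 200 promoters with H3K4me1 in both DMSO libraries and 1 CARM1i library. The share at lost promoters was thus near that of all promoters but above those of promoters that kept H3K4me1. No promoter had H3K4me1 in both CARM1i libraries and neither DMSO library.

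The number and extent of sites were compared first. The CARM1i lists held 4094 and 4242 peaks, against 25058 and 9673 in the DMSO lists. The CARM1i libraries were close to each other, and the DMSO libraries differed 2.59-fold between themselves, with DMSO library 1 far above the other lists. The means were 4168 ± 105 peaks with CARM1i and 17366 ± 10879 with DMSO (SD, n = 2 each), a log2 ratio of -2.06, with a two-sided exact permutation p of 0.333, the smallest that 2 against 2 libraries allow. Without DMSO library 1 the log2 ratio was -1.21. The peaks covered 9.11 and 8.30 Mb with CARM1i and 60.4 and 22.1 Mb with DMSO (log2 ratio -2.24, exact permutation p = 0.333, and -1.35 against DMSO library 2). Here too the groups did not overlap.

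Single peaks were of similar width in the lists as deposited. The median peak was 1852 and 1616.5 bp wide with CARM1i, against 1853 and 1817 bp with DMSO (log2 ratio -0.08, exact permutation p = 0.667). When each list was cut to its 4094 widest peaks, the median was 1852 and 1648.5 bp with CARM1i and 4646 and 2859 bp with DMSO (log2 ratio -1.10, exact permutation p = 0.333). That number is the full length of the CARM1i replicate 1 list, so the cut removed narrow peaks mainly from the DMSO lists. The narrowest peaks left were 771 and 879 bp with CARM1i and 3406 and 2021 bp with DMSO. Wider DMSO peaks in these shortened lists therefore follow from the cut. In the lists as deposited the 95th percentile of width was 4640 and 4131 bp with CARM1i and 5674 and 5137 bp with DMSO, and the longest single peak 12720 and 13397 bp against 36148 and 23909 bp. The log2 ratio of the 95th percentile was -0.30 in the lists as deposited. It was -0.99 in the lists of equal number, where the cut again leaves only wide DMSO peaks. Read depth is unknown, since the lists hold positions alone. A site missing from a list can therefore be one below the peak caller's threshold, and fewer marked sites and weaker enrichment in a library cannot be told apart.

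**Figure D1:**
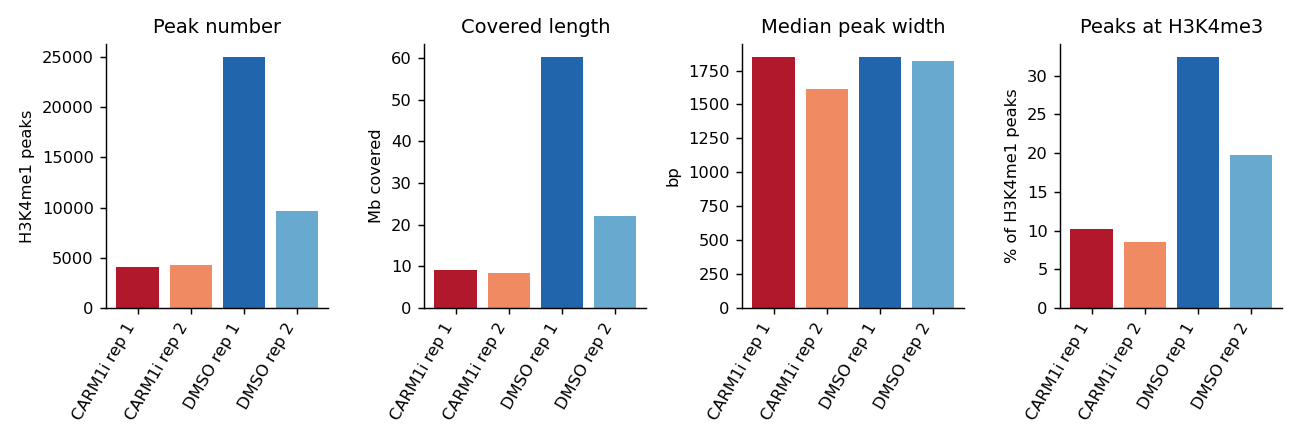
Bars show, for each of the 4 libraries (no error bars, 1 value per library), the number of H3K4me1 peaks, the Mb they cover, the median peak width in bp and the percentage of peaks that overlap an H3K4me3 peak of the same treatment and replicate. The CARM1i bars (4094 and 4242 peaks) lie below both DMSO bars (25058 and 9673) in every panel except median width, where CARM1i replicate 1 (1852 bp) lies between the DMSO libraries.

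The lists were nested. Of the CARM1i peaks, 95.7% (replicate 1) and 93.3% (replicate 2) overlapped a peak of DMSO library 1, and 79.4% and 76.7% a peak of DMSO library 2. Only 164 and 268 CARM1i peaks had no peak of either DMSO library. The CARM1i libraries overlapped each other less, 54.9% and 55.0% of their peaks. DMSO library 2 was nested in the same way in DMSO library 1, which overlapped 96.7% of its peaks. In the opposite direction, CARM1i peaks overlapped 31.5% (replicate 1, exact Clopper-Pearson 95% interval 30.5 to 32.4%) and 30.6% (replicate 2, 29.7 to 31.5%) of the 9673 peaks of DMSO library 2, intervals that cover counting error only. Of those 9673 peaks, 5601 (57.9%) met a peak of neither CARM1i library, 2141 (22.1%) of exactly 1 and 1931 of both.

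Which DMSO sites were met by CARM1i peaks followed the width of the DMSO peak. In the narrowest decile of DMSO library 2 (median 1004 bp), 6.71% of peaks were overlapped in each CARM1i library. In decile 5 (median 1698 bp) 22.5% and 20.7% were overlapped, and in the widest decile (median 5137 bp) 84.4% and 83.1%. DMSO library 1 overlapped 90.1% of the narrowest and 99.7% of the widest decile. A wider peak offers more bp to be met. With at least 50% of the DMSO peak covered the share over all peaks was 25.2% and 22.5%.

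**Figure D2:**
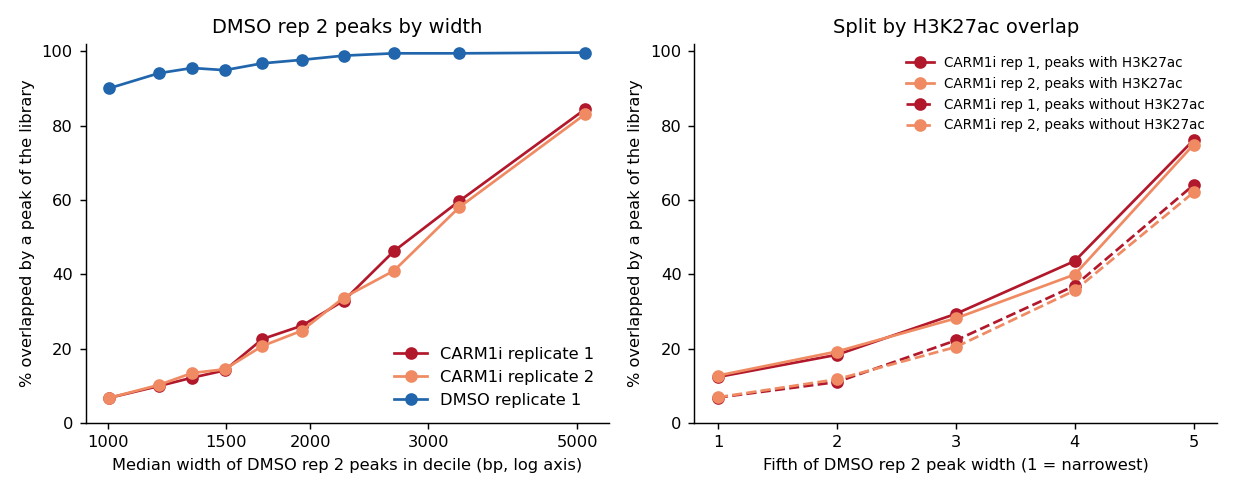
Left, the percentage of DMSO replicate 2 peaks overlapped by a peak of each other library, by decile of peak width (log axis); right, the same for the CARM1i libraries by width class (5 of equal number, narrowest first), with peaks split by overlap with H3K27ac. Both CARM1i lines climb with width, from 6.71% in the narrowest decile to 84.4% and 83.1% in the widest, while DMSO replicate 1 stays at 90.1% or above.

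Sites with H3K27ac, the mark of active enhancers and promoters, in any library were met more often. Of the 3730 DMSO library 2 peaks that overlapped an H3K27ac peak of any library, 44.3% (CARM1i replicate 1) and 43.1% (replicate 2) were overlapped by H3K4me1 with CARM1i. Of the 5943 without H3K27ac, 23.4% and 22.7% were. H3K27ac of any library includes the CARM1i lists, so a site can qualify through CARM1i cells alone. In DMSO replicate 2, 18.3% of H3K4me1 peaks overlapped H3K27ac of the same library pair, against 38.6% for H3K27ac of any library. Peaks with H3K27ac were wider (median 2269 bp, against 1648 bp), but the order was the same in all 5 width classes of equal number. In the narrowest class the shares were 12.3% and 12.7% with H3K27ac and 6.80% and 6.87% without it, and in the widest class 76.1% and 74.9% against 64.1% and 62.1%. H3K4me3, the promoter mark, was taken from the H3K4me3 list of DMSO replicate 2 alone, so this split is not defined like that for H3K27ac. Among narrow peaks, those with H3K4me3 were met less often than those without it. In the narrowest class 4.38% of peaks with H3K4me3 were overlapped in each CARM1i library, against 9.51% and 9.72% without it. In the widest class the shares with H3K4me3 (73.0% and 70.6%) and without it (71.9% and 70.6%) were close. These shares describe peaks of 1 library and were not tested.

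The position of the peaks was compared next. Within 2 kb of an end of a protein-coding gene lay 23.8% and 23.6% of CARM1i peaks, against 34.2% and 27.5% of DMSO peaks, and the CARM1i mean differed by -7.12 percentage points (two-sided exact permutation test, p = 0.333). Elsewhere in gene bodies lay 49.3% and 48.6% of CARM1i peaks and 37.5% and 44.0% of DMSO peaks, and between genes 26.9% and 27.8% against 28.4% and 28.5%. For start sites alone, 15.0% and 14.3% of CARM1i peaks and 26.3% and 18.7% of DMSO peaks lay within 2 kb. An H3K4me3 peak of the same treatment and replicate was overlapped by 10.3% and 8.56% of CARM1i peaks and by 32.5% and 19.8% of DMSO peaks, and the CARM1i mean differed by -16.72 percentage points (two-sided exact permutation test, p = 0.333). The groups did not overlap in the shares at gene ends, start sites or H3K4me3, but the DMSO libraries also lay apart from each other. The H3K4me3 difference was -10.36 points without DMSO library 1 and -10.67 points against the merged peaks of all 4 H3K4me3 libraries.

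With the 4094 widest peaks of each list the H3K4me3 share was 10.3% and 8.48% with CARM1i and 28.5% and 18.0% with DMSO. The share that overlapped H3K27ac of the same treatment and replicate did depend on the length of the lists. It was 32.8% and 29.4% with CARM1i and 24.7% and 18.3% with DMSO in the full lists (9.63 percentage points, exact permutation test, p = 0.333). In the lists of equal number it was 32.8% and 29.8% with CARM1i and 52.4% and 27.5% with DMSO, a difference of -8.65, so no direction is given for H3K27ac.

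Around start sites H3K4me1 formed shoulders on both sides. At 10214 start sites with H3K4me3 in all 4 H3K4me3 libraries, the shoulder peaked 1 to 1.5 kb downstream. There 1.73% (CARM1i replicate 1) and 1.65% (CARM1i replicate 2) of sites lay inside an H3K4me1 peak, against 34.4% (DMSO replicate 1) and 6.16% (DMSO replicate 2). At the start site itself the shares were 0.529% and 0.441% with CARM1i and 13.3% and 2.25% with DMSO. All 4 libraries thus had the dip at the start site. Relative to the mean share 10 kb away on both sides (0.999% and 0.940% with CARM1i, 5.91% and 2.31% with DMSO), the share 1 kb downstream was 1.58 and 1.49 times that level with CARM1i and 5.82 and 2.58 times with DMSO. On that scale the shoulders were lower in both CARM1i libraries than in either DMSO library. Relative to the start site itself the order was the other way, with the share 1 kb downstream 2.98 and 3.18 times the share at the start site with CARM1i and 2.60 and 2.64 times with DMSO.

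Away from promoters more of the mark was met. At 687 sites with H3K27ac in all 4 H3K27ac libraries, no H3K4me3 and no gene end within 2 kb, CARM1i H3K4me1 peaks overlapped 53.1% and 53.3% of sites and DMSO peaks 99.1% and 84.1%. The centre of the site lay inside a peak at 34.6% and 33.2% of sites with CARM1i and 93.2% and 66.4% with DMSO. At 1113 sites with H3K27ac in all 4 libraries that did overlap H3K4me3, H3K4me1 overlapped 20.1% and 20.4% with CARM1i and 76.0% and 37.9% with DMSO.

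**Figure D3:**
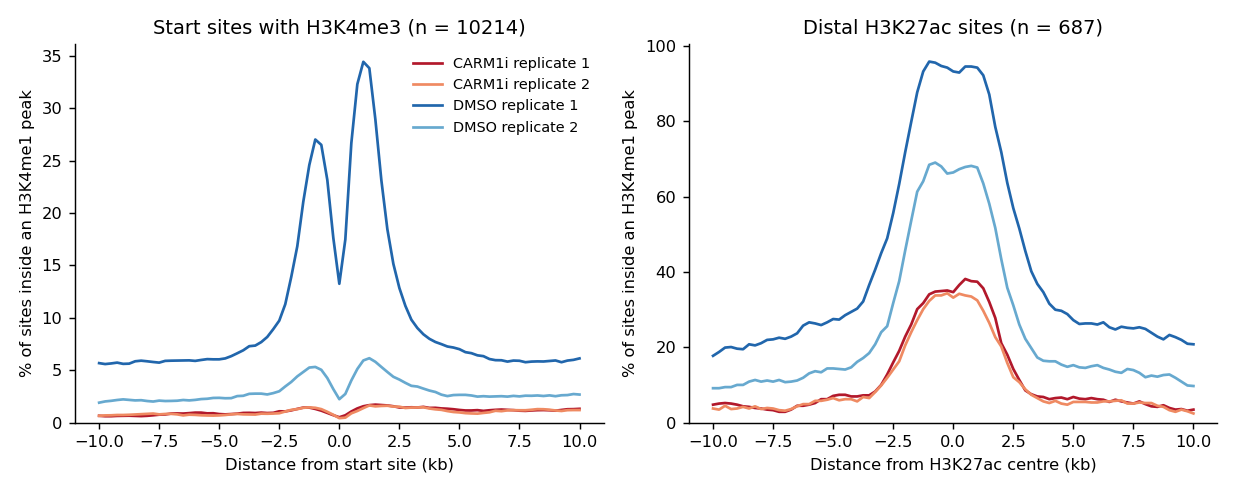
Lines give the percentage of sites that lie inside an H3K4me1 peak at each distance in kb, for 10214 start sites with H3K4me3 (left; upstream is negative) and 687 distal H3K27ac sites (right), 1 line per library. The shoulders around start sites reach 1.73% and 1.65% in the CARM1i libraries and 34.4% and 6.16% in the DMSO libraries, while at the H3K27ac centres the CARM1i lines stand at 34.6% and 33.2%.

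The sites themselves were followed by merging the 4 lists into 25624 regions, in which peaks overlap or touch. A region was called lost with a peak in both DMSO libraries and neither CARM1i library, and gained in the opposite case. Both DMSO libraries had a peak in 8113 regions, and 4417 of these (54.4%) were lost. Only 25 of the 2024 regions with a peak in both CARM1i libraries (1.24%) were gained. A further 1826 regions had a peak in all 4 libraries, and 15752 had a peak in DMSO library 1 alone. Lost regions were small, with a median of 2556 bp covered in DMSO library 1 and 1572 bp in DMSO library 2, against 5212 and 3894.5 bp for regions present in all 4 libraries. The counts depend on single libraries: 20257 regions were lost without DMSO library 2, and gained regions numbered 268, 164 and 208 without CARM1i library 1, CARM1i library 2 and DMSO library 1. With the 4094 widest peaks of each list, 587 regions were lost and 292 gained. That cut drops all peaks narrower than 3406 bp from DMSO library 1 and narrower than 2021 bp from DMSO library 2. A region can thus count as gained there although the full DMSO lists have a peak in it.

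Among the widest lost regions, 1 lay in C2CD2 (chr21:41923291-41934374), with no peak with CARM1i and 11084 and 9891 bp covered with DMSO. Another ran over the 3′ end of TCL1B, a gene of the TCL1 family whose member TCL1A is a lymphoid oncogene (chr14:95689546-95705168). It had 0 bp with CARM1i and 15623 and 9103 bp with DMSO, while H3K27ac covered 8976 and 11142 bp of it with CARM1i and 12597 and 4459 bp with DMSO. A lost region at an end of LRRK2, a kinase gene (chr12:40224949-40234510), had 9437 and 9005 bp with DMSO. A lost region 14204 bp from CXCR4, the chemokine receptor that sorts germinal centre B cells (chr2:136132354-136143173), had 10820 and 8141 bp with DMSO and kept H3K27ac over 6021 and 6711 bp with CARM1i, against 7469 and 5729 bp with DMSO. Of the 8 widest lost regions, 3 had H3K27ac in both CARM1i libraries. Over all 4417 lost regions 29.5% overlapped H3K27ac of any library, a looser rule, and wide regions offer more bp to be met.

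Regions present in all 4 libraries were narrower with CARM1i. Their median covered length was 2610.5 and 2330.5 bp with CARM1i and 5212 and 3894.5 bp with DMSO. In 1411 of 1826 (77.3%) both CARM1i libraries covered less than both DMSO libraries, and in 1416 (77.5%) less than DMSO library 2. The median log2 ratio was -0.73 against the DMSO mean and -0.51 against DMSO library 2. Without DMSO library 1, over 1881 regions, it was -0.44. DMSO library 2 itself stood at -0.32 against DMSO library 1. The ratio against DMSO library 2 was -0.57 at the 1149 regions with H3K27ac and -0.40 at the 677 without, and -0.52 at gene ends, -0.49 in gene bodies and -0.50 between genes. Splitting of 1 region into several peaks was found in 22.2% and 23.1% of these regions with CARM1i and in 3.56% and 25.7% with DMSO.

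The 8 shared regions with the most coverage in the lower CARM1i library were picked out, so their high coverage with CARM1i follows from the choice, and 4 of them are given here as a description. In BAHCC1, a gene of a chromatin protein (chr17:81426137-81462331), H3K4me1 covered 27949 and 29473 bp with CARM1i and 36148 and 35607 bp with DMSO. At GRK2, a kinase of G protein-coupled receptors (chr11:67267189-67289057), it covered 20204 and 19658 bp with CARM1i and 21803 and 21420 bp with DMSO. At CD81, a tetraspanin membrane protein (chr11:2378240-2400477), it covered 16579 and 16000 bp with CARM1i and 22238 and 20289 bp with DMSO. At ADAMTSL4 and the anti-apoptotic gene MCL1 (chr1:150559622-150578172), it covered 16284 and 15666 bp against 18551 and 18228 bp. CARM1i values were below both DMSO values in each of these 4 regions.

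In 14 of the 1826 regions (0.767%) both CARM1i libraries covered more than both DMSO libraries, and 7 of the 14 lay on chromosome 1 beyond 150 Mb, a segment with 10.4 and 11.1% of all peaks of the CARM1i libraries. The widest lay in QSOX1, a sulfhydryl oxidase (chr1:180187151-180196752), with 9328 and 9129 bp with CARM1i and 7727 and 5973 bp with DMSO, and with H3K27ac of 4814 and 4242 bp with CARM1i and none with DMSO. Another lay in PTPRR, a tyrosine phosphatase (chr12:70789558-70794236), with 4468 and 4679 bp with CARM1i and 3627 and 2813 bp with DMSO. H3K27ac was present in both CARM1i libraries at 6 of the 14 regions, and at 3 of these in neither DMSO library. Over all 1826 regions 62.9% overlapped H3K27ac of any library, a looser rule, so these counts are not read as a trait of the 14. The gained regions were short, 840 to 4271 bp in a CARM1i library, and 3 of the 25 lay on chromosome 1 beyond 150 Mb, near that segment's share of the CARM1i peaks. The widest by the lower CARM1i library lay in ACBD6 (chr1:180341937-180346288), with 4056 and 3106 bp with CARM1i and none with DMSO.

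Genes were read as the span of the RefSeq gene with 10 kb added on both sides, since enhancers lie away from promoters. A peak can then count for neighbouring genes, and 50.7% of the 4973 genes with H3K4me1 in both DMSO libraries had a DMSO library 2 peak that fell in no other gene's window. With CARM1i 2651 and 2731 of 19974 protein-coding genes had H3K4me1, against 10449 and 5022 with DMSO. Of the 4973 genes, 1980 (39.8%) had none in either CARM1i library and 1766 (35.5%) had it in all 4. In 1479 of the 1766 (83.7%) both CARM1i libraries covered less than both DMSO libraries, and in 1480 (83.8%) less than DMSO library 2, with a median log2 ratio to DMSO library 2 of -0.90. Lost genes had a median of 1586 bp in DMSO library 2 and genes with H3K4me1 in all 4 libraries 6718.5 bp. Lost genes numbered 7001 without DMSO library 2, and 279 with the 4094 widest peaks of each list, where 183 genes were gained. In those shortened lists a gene can count as gained because its narrower DMSO peaks were dropped.

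The lost genes with the most DMSO coverage had no H3K4me1 with CARM1i and 8390 bp or more in both DMSO libraries. TCL1B had 0 bp in both CARM1i libraries and 20045 and 11784 bp in the DMSO libraries. FCER2, which encodes CD23, the low-affinity IgE receptor of B cells, had 0 bp with CARM1i and 18181 and 11159 bp with DMSO. CRTC3, a coactivator of the transcription factor CREB, had 0 bp with CARM1i and 16841 and 11777 bp with DMSO. These genes were picked for 0 bp with CARM1i and high DMSO coverage, so the gap between the groups follows from the choice. PLCH1, a phospholipase C (20502 and 10466 bp with DMSO), EVL, an actin regulator (15705 and 9645 bp), and CLASRP, a splicing-related gene (20162 and 9222 bp), followed. OSBPL2, an oxysterol-binding protein gene (12686 and 8474 bp), and CYBB, the catalytic subunit of the phagocyte NADPH oxidase (15399 and 8390 bp), complete the 8. H3K27ac was present in all 4 libraries at TCL1B, PLCH1, CLASRP, OSBPL2 and CYBB, with 12368 and 14204 bp at TCL1B with CARM1i and 16269 and 7547 bp with DMSO. This was not counted over all lost genes, so it describes the named genes alone.

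Genes with the most H3K4me1 left carried several peaks in each library. These genes were picked for the longest coverage in the lower CARM1i library, summed over the gene window, a sum that favours long genes. MSI2, an RNA-binding protein of stem and blood cells, had 66375 and 65567 bp with CARM1i and 139948 and 107326 bp with DMSO. SEPTIN9, a cytoskeletal GTPase, had 59203 and 43566 bp with CARM1i and 100067 and 85596 bp with DMSO. RARA, the retinoic acid receptor alpha, had 31841 and 25151 bp with CARM1i and 50574 and 34756 bp with DMSO. CARM1i values lay below DMSO library 2 in all 3. MAD1L1 (spindle checkpoint), BAHCC1, GALNT2 (an O-glycosylation enzyme), CUX1 (a homeobox transcription factor) and LHPP (a phosphatase) complete the 8, which kept 47.4 to 91.6% of the DMSO library 2 length in CARM1i library 1 and 50.9 to 87.2% in CARM1i library 2.

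The strongest narrowing among genes with at least 10 kb in both DMSO libraries was at DIP2C, with 994 and 1078 bp with CARM1i and 37624 and 11000 bp with DMSO. SELPLG, the ligand of P-selectin on leukocytes, had 1007 and 1158 bp with CARM1i and 19266 and 11261 bp with DMSO. PIEZO1, a mechanosensitive channel, had 1648 and 2750 bp with CARM1i and 30689 and 20172 bp with DMSO. Each of the 3 kept 1 or 2 peaks per CARM1i library. KLHDC4, PEAK3, NINJ1, EPN2 and EHMT1 (a histone H3K9 methyltransferase) make up the 8, with 8.17 to 15.1% of the DMSO library 2 length in CARM1i library 1 and 8.29 to 15.2% in CARM1i library 2. The 8 were picked for a low ratio of CARM1i to DMSO library 2, so these low shares follow from the choice. At SELPLG H3K27ac still covered 10654 and 12108 bp with CARM1i, against 12323 and 8142 bp with DMSO.

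Few genes went the other way. Only 6 of 9476 genes without H3K4me1 in either DMSO library (0.0633%) had it in both CARM1i libraries. They were ACBD6 (4056 and 5828 bp with CARM1i), CD34, a surface marker of blood progenitors (2835 and 2574 bp), RAB3IP (2121 and 3852 bp), MMP20, an enamel protease (1722 and 1717 bp), SHH, a secreted morphogen (1595 and 1668 bp), and IL22, a cytokine (408 and 481 bp). This count was 40, 32 and 94 without CARM1i library 1, CARM1i library 2 and DMSO library 1. More coverage in both CARM1i libraries than in both DMSO libraries was found at 4 of the 1766 genes (0.227%). PROX1, a homeobox transcription factor, had 6765 and 4438 bp with CARM1i and 2241 and 1911 bp with DMSO. The others were PTPRR (8102 and 9382 bp, against 7327 and 5819 bp), TNNI1, a muscle troponin (1978 and 2320 bp, against 1732 and 1318 bp), and CHRNB2, a nicotinic receptor subunit (4157 and 4514 bp, against 4023 and 3183 bp). At PROX1 H3K27ac covered 8843 and 9970 bp with CARM1i and 1749 and 0 bp with DMSO.

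**Figure D4:**
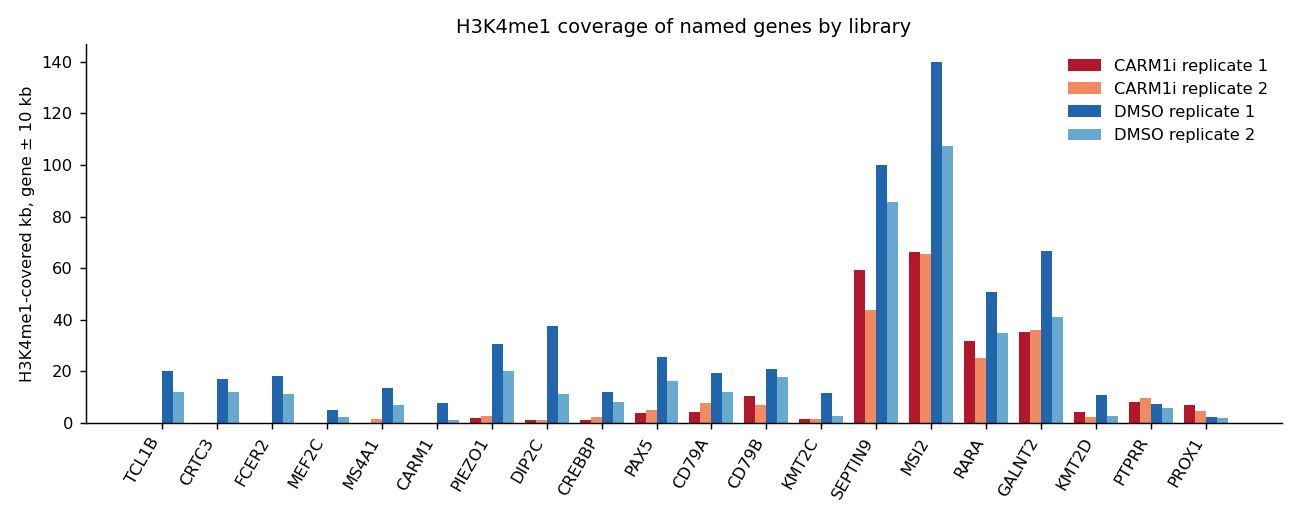
Bars give the kb covered by H3K4me1 in 20 named genes (gene span with 10 kb on both sides) in each library, 1 value per library and no error bars. TCL1B, CRTC3 and FCER2 have bars only for DMSO, MSI2 has the tallest bars, 66375 and 65567 bp with CARM1i against 139948 and 107326 bp with DMSO, and PROX1 is higher with CARM1i.

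The labelled cell type was checked on markers. Of 13 B-cell markers, 7 and 6 had H3K4me1 with CARM1i and 12 and 11 with DMSO, over 27.6 and 24.3 kb in sum with CARM1i and 196 and 101 kb with DMSO. Over all 19974 protein-coding genes, 2651 and 2731 had H3K4me1 with CARM1i and 10449 and 5022 with DMSO. CD79A, the signalling chain of the B-cell receptor, had 4032 and 7511 bp with CARM1i and 19423 and 11744 bp with DMSO, and its partner CD79B had 10177 and 6945 bp with CARM1i and 20676 and 17665 bp with DMSO. Of 17 myeloid markers, none had H3K4me1 in either CARM1i library and 3 and 1 had it with DMSO. T and NK cell markers had it at 4 and 3 of 20 genes with CARM1i and 12 and 7 with DMSO, in each library a higher share than all genes. CD247, CD4 and LCK had it in all 4 libraries, and CD3E, GNLY and KLRD1 in both DMSO libraries alone. The T-cell genes CD3D, CD3G and CD8A were among 8 with no peak in any library. Epithelial and stromal markers had it at 6 and 1 of 18 genes with CARM1i and 8 and 4 with DMSO. EPCAM and COL3A1 had no peak in any library, but COL1A1 had 6539 and 7513 bp with CARM1i and 17221 and 13459 bp with DMSO.

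Gene groups are described against the 39.8% of genes that lost the mark. Of 11 B-cell markers with H3K4me1 in both DMSO libraries, 2 lost it, among them VPREB3, a surrogate light chain-like gene (0 bp in both CARM1i libraries and 7865 and 1574 bp with DMSO). MS4A1, which encodes CD20, had 0 and 1288 bp with CARM1i and 13498 and 6967 bp with DMSO. Of 22 B-cell transcription factors, 6 lost it and 11 had it in all 4 libraries, each of the 11 with less in both CARM1i libraries than in DMSO library 2 and with a median log2 ratio of -1.25. Over all 1766 genes with H3K4me1 in all 4 libraries, 83.8% had less in this sense, with a median of -0.90, so 11 of 11 was near the share of all such genes. PAX5, the master regulator of B-cell identity, had 3673 and 4731 bp with CARM1i and 25475 and 16168 bp with DMSO. IKZF3, a lymphoid zinc finger factor, had 11209 and 8507 bp with CARM1i and 36700 and 19818 bp with DMSO, and SPIB, an ETS factor, 7877 and 5137 bp against 19506 and 15450 bp. EBF1, a B-lineage factor, had 4306 and 0 bp with CARM1i and 26200 and 6938 bp with DMSO, so the CARM1i libraries disagreed there. FOXO1 had 0 bp in both CARM1i libraries and 17552 and 7022 bp with DMSO, and BCL11A 0 bp against 17074 and 6800 bp.

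Genes of B-cell receptor signalling lost the mark in 2 of 16 cases, the adaptor BLNK (0 bp with CARM1i, 12131 and 5068 bp with DMSO) and the kinase BTK (0 bp, against 9270 and 5024 bp). The 8 that had it in all 4 libraries all had less in both CARM1i libraries than in DMSO library 2, with a median log2 ratio of -1.71, beside 83.8% and -0.90 over all such genes. PLCG2, the phospholipase downstream of the receptor, had 5170 and 852 bp with CARM1i and 61451 and 32482 bp with DMSO. CD81 had 19617 and 19211 bp with CARM1i and 30777 and 26824 bp with DMSO. Coverage was therefore lower in both CARM1i libraries than in both DMSO libraries at both genes, by very different amounts.

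In the germinal centre programme 6 of 13 genes lost H3K4me1. CD38 had 0 bp in both CARM1i libraries and 16943 and 3622 bp with DMSO, S1PR2, a confinement receptor of germinal centre B cells, 0 bp against 9194 and 2738 bp, and CXCR4 0 bp against 9109 and 2886 bp. CXCR5, the follicle-homing receptor, had 1058 and 2428 bp with CARM1i and 13454 and 8657 bp with DMSO. BCL6, the repressor that defines germinal centre B cells, had 6883 bp in DMSO library 1 and none in the other 3 libraries, so it could not be compared, and BACH2 and IRF4 were listed in DMSO library 1 alone as well. Of 10 genes of plasma cell fate and germinal centre exit, 5 lost the mark, PRDM1, the plasma cell regulator (0 bp, against 3177 and 1547 bp), and XBP1 (0 bp, against 5412 and 2813 bp) among them, and 5 had it in all 4 libraries. MEF2C, a B-cell factor, had 0 bp with CARM1i and 4993 and 2210 bp with DMSO, and MEF2B 1036 and 0 bp against 10350 and 2483 bp. IRF8 had 0 and 975 bp with CARM1i and 16795 and 7974 bp with DMSO.

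Among genes of the enzymes that write and erase H3K4 methylation, 4 of 12 in the methyltransferase complexes lost the mark. They encode ASH2L, RBBP5 and WDR5, shared subunits of the complexes, and WDR82, a subunit of the SETD1 complexes, and WDR5 had 0 bp with CARM1i and 8602 and 3761 bp with DMSO. KMT2C had 1263 and 1375 bp with CARM1i and 11349 and 2699 bp with DMSO. KMT2D had 4152 and 2119 bp with CARM1i and 10567 and 2483 bp with DMSO, so CARM1i library 1 exceeded DMSO library 2. Of 4 demethylase-complex genes 1 lost it (RCOR1), and KDM5B had 4523 and 3727 bp with CARM1i and 16638 and 6126 bp with DMSO. KDM1A and KDM6A had peaks in DMSO library 1 alone.

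Of 7 acetyltransferase and coactivator genes 4 lost the mark, among them KAT6B and NCOA1. CREBBP, an acetyltransferase gene named in the series title, had 1069 and 2172 bp with CARM1i and 11954 and 8121 bp with DMSO, and EP300 had no H3K4me1 peak in any library. CARM1, the target of the inhibitor, had 0 bp with CARM1i and 7776 and 1170 bp with DMSO. Among arginine methyltransferase genes 1 of 3 lost it (CARM1), and PRMT7 had 5600 and 4760 bp with CARM1i and 12792 and 8600 bp with DMSO.

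Cell cycle genes lost the mark in 2 of 13 cases and ribosomal protein genes in 9 of 17. E2F1, a cell cycle transcription factor, had 13507 and 8834 bp with CARM1i and 25086 and 13053 bp with DMSO, with CARM1i library 1 above DMSO library 2. CCND3, a G1 cyclin, had 7755 and 4501 bp with CARM1i and 40452 and 18180 bp with DMSO, and CDK4, a kinase of the same step, 1794 and 1496 bp against 12968 and 6815 bp. Among ribosomal protein genes RPS19 had 4140 and 6250 bp with CARM1i and 21749 and 10891 bp with DMSO, and RPL4 0 bp against 2860 and 1216 bp. Of the 14 lists, 8 had a lower lost share than all genes and 6 a higher one, and no list had a gained gene. Lost genes had less DMSO coverage than the others over the whole genome, and the lists were neither matched for DMSO coverage nor tested.

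The share of sites met by CARM1i peaks differed along the genome. In 148 bins of 10 Mb with at least 20 DMSO library 2 peaks, the mean share over the CARM1i libraries ran from 2.38% to 59.2%, with a median of 31.7%. It was highest on chromosome 1 from 200 to 210 Mb (57.4% and 61.0%) and lowest on chromosome 12 from 90 to 100 Mb (4.76% and 0%). On chromosome 1 from 150 Mb, 48.8% and 50.2% of 642 DMSO library 2 peaks were met, and up to 150 Mb 21.9% and 19.3% of 429. The distal segment held 10.4% and 11.1% of all CARM1i peaks and 5.46% and 6.64% of all DMSO peaks. DMSO library 2 peaks were also wider there, with a median of 2737.5 bp from 150 Mb and 1455 bp up to it. Within the widest of the 5 classes, 73.9% and 74.6% were met in the segment and 71.8% and 69.9% in the rest of the genome, and in the next widest 39.9% and 38.3% against 39.5% and 37.2%. In the middle class 18.5% and 26.9% of 108 peaks were met in the segment, against 24.7% and 22.5% in the rest. In the second narrowest the shares were 10.2% and 10.2% of 49 peaks, against 13.2% and 14.0%. At matched width the segment was thus close to the rest in the widest and next widest classes, mixed in the middle one and lower in the second narrowest. It held only 11 peaks of the narrowest class.

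In the other marks CARM1i library 2 had more peaks than the other 3 libraries in some bins, within this segment and elsewhere. On chromosome 1 from 190 to 200 Mb its H3K27ac list had 73 peaks, against 42 for CARM1i replicate 1 and 58 and 39 for DMSO, and its H3K4me3 list 34, against 15 for CARM1i replicate 1 and 15 and 16 for DMSO. From 200 to 210 Mb its H3K27ac list was not high, with 44 peaks, against 48 for CARM1i replicate 1 and 71 and 34 for DMSO. On chromosome 4 from 130 to 140 Mb it had 35 H3K27ac peaks, against 20 for CARM1i replicate 1 and 18 and 12 for DMSO. Leaving out chromosome 1 from 150 Mb gave 4214 lost and 22 gained regions.

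**Figure D5:**
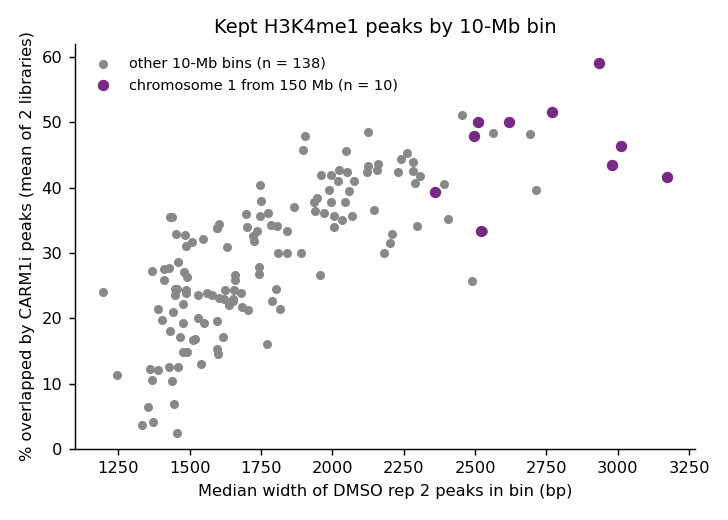
Each point is a 10-Mb bin with at least 20 DMSO replicate 2 peaks, with their median width in bp on the horizontal axis and the percentage overlapped by CARM1i peaks (mean of 2 libraries) on the vertical axis. The 10 bins of chromosome 1 from 150 Mb, at 33.3 to 59.2%, lie to the right among the bins with wide peaks, and the other 138 run from 2.38 to 51.2%.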

How the data were processed

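The submitters' processing notes name Bowtie 1.1.2 (an aligner), MACS 1.4.2 (a peak caller) and build hg38. How peaks were thresholded and how the 4 input controls entered is not stated in any source used here. For each ChIP library the authors deposited 1 list with 3 columns of positions and no score, signal or depth, so presence, covered bp and width were the measures. Peaks were therefore called per library.

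Overlaps of at least 1 bp were computed in Python 3.11.15 with numpy 2.4.6 and pandas 2.3.3. Genes and promoters are RefSeq GRCh38.p14, the assembly of hg38. Group differences were tested by exact permutation (two-sided, 6 assignments of 4 libraries), with a threshold of 0.05 that cannot be reached. Named genes are the 8 lost, most covered and most narrowed genes, all gained or wider genes and a panel of 20. The members, lists and panel were chosen with earlier results of these data known. With 200 lost and 100 gained regions planted in simulated lists of 25624 regions, all were recovered. Every other region was in all 4 simulated lists, so this checked the counting alone and not how reliable the calls are. Alternatives comprised leaving out each library, the widest peaks in equal number, a width minimum, merge gaps, other windows and merged mark sets. Some genes counted in the lists are not reported here by name.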

Additional observations from a re-analysis of the deposited data

How the results depend on the processing

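The peak number, covered length, and the shares at gene ends and at H3K4me3 kept their direction under every alternative run. Leaving out 1 library moved their differences from -2.59 to -1.21 and from -2.79 to -1.35 (log2), from -10.47 to -3.78 and from -23.08 to -10.36 (percentage points). The H3K27ac share ranged from 6.42 to 12.83 points, was 15.33 with merged H3K27ac peaks and reversed to -8.65 in lists of equal number, and the median width ranged from -0.18 to 0.013 (log2), reversing without CARM1i replicate 2. Paired by replicate number (replicate block, sign flips over 2 pairs, smallest p 0.5), the differences were -1.90 for peak number, -2.07 for covered length, -0.08 for median width, -7.12, 9.63 and -16.72 points for gene ends, H3K27ac and H3K4me3; the number is only a name and 2 pairs cannot show pairing.

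Without 1 library, lost regions ranged from 5343 to 20257, against 4417 with all libraries, gained regions from 29 to 268, lost genes from 2021 to 7001, gained genes from 6 to 94, the width ratio of shared regions from -0.85 to -0.44 and the share of DMSO replicate 2 peaks met from 30.6 to 31.5%. In lists of equal number they were 587 and 292 regions, 279 and 183 genes and 53.1%. With gaps of 1000 bp merged the width ratio was -0.86, and with at least 50% of the peak covered the share was 23.9%. The peak number could not be compared in lists of equal number. Leaving out a library drops a condition of the lost and gained rules, so counts of genes could only rise or stay equal. Fewer peaks enter the shortened lists, and those left out are mainly DMSO peaks. Regions and genes can therefore count as gained there although the full DMSO lists have a peak. The cause of the other moves was not tested. Leaving out chromosome 1 from 150 Mb and counting start sites only were chosen after seeing the data: they gave 1876 lost and 4 gained genes, and -7.86 points. Unknown depth and 2 libraries per group limit all values.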
